A study of Homo sapiens with 2 samples.

Results

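Motile cilium genes were taken by name, as the genes called DNAH, DNAI, CFAP, RSPH or DRC followed by a number (for RSPH also with a final A or B), together with FOXJ1, SPAG6, SPAG17 and HYDIN. The rule found 73 of the 62704 genes in the deposited tables and used no measured value, but it was chosen with earlier results of these data known. Because it goes by name, it also takes in proteins that serve other cilia or other parts of the cell, such as CFAP20, CFAP36, CFAP410 and CFAP418, and these were counted like the rest.

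A motile cilium is a beating extension of the cell surface, built on a ring of microtubule doublets around a central pair. Dynein arms on the doublets produce the stroke, and radial spokes, the nexin-dynein regulatory complex and the central apparatus time it. In the brain such cilia are known from ependymal cells and from the choroid plexus, the epithelium that secretes cerebrospinal fluid, whereas neurons and neural progenitors carry a single primary cilium that lacks dynein arms. FOXJ1 is the transcription factor best known for switching on the program, together with RFX factors, which bind a sequence called the X-box.

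The RNA came from brain organoids of hES H9, an established line of human embryonic stem cells, all grown with a commercial cerebral organoid kit. The cell library pooled control organoids (CO) of days 45, 55 and 70, organoids dissociated into single cells at day 45 and reaggregated (DISS) of days 48, 55 and 70, and constrained organoids (CONS) that lost their Matrigel at day 13, grew on in agarose and were sampled at day 55. The nuclei library, per the study's methods, came from day 45 COs, both whole and as single-cell suspensions, although its label lists control, dissociated and embed as treatments. All barcodes of a library carry 1 sample name, so conditions and days could not be compared, each library was 1 sample, and no test or p-value is given.

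After filtering, 20178 of 1303455 barcodes of the cells and 14228 of 197446 barcodes of the nuclei were kept, with medians of 2615 and 3890 transcripts (each barcode above 1000). Their 157306492 and 72162726 transcripts set the counting error of sums over barcodes, and the 95% intervals below (exact Poisson for levels and folds, exact binomial for shares) cover that error only. Both libraries were built by combinatorial barcoding, and 99 combinations of wells occurred in both. In the cells, barcodes of 1 first-round well, A8, made up most of 4 clusters, so values that rest on that well are given with and without it. SD values are over the 8 sub-libraries of the cells or the 2 of the nuclei and are technical.

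Motile cilium genes were several times higher in choroid plexus-like barcodes than in all other barcodes together, in both libraries. The class was named from markers such as TTR, HTR2C and CLIC6 on clusters built without the 73 genes, and held 1367 cells and 364 nuclei. Other motile cilium genes were kept in the clustering, and ARMC3 in cells and TEKT1 in nuclei were among the 10 leading genes of its clusters. The class was therefore not drawn independently of the program. Summed over the 73 genes, its level was 6642 ± 806 counts per 1000000 transcripts (CPM; SD over 8 sub-libraries) in cells and 14847 ± 241 CPM (SD over 2) in nuclei. All other barcodes together stood at 1029 and 1094 CPM, which is a fold of 6.46 (interval 6.41 to 6.51) in cells and 13.6 (13.4 to 13.7) in nuclei.

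The named classes outside the choroid plexus lay close to each other. In cells, radial glia-like barcodes reached 1064 ± 39.8 CPM, dividing ones 1009 ± 82.1, intermediate progenitor-like ones 894 ± 35.1 and excitatory neuron-like ones 783 ± 35.6. In nuclei the order was radial glia-like (1152 ± 21.3 CPM), dividing (998), Cajal-Retzius-like (782 ± 125) and excitatory neuron-like (673 ± 22.7). Radial glia-like and dividing cells lay within the technical spread of their sub-libraries, while their counting intervals were apart (1047 to 1082 against 998 to 1021 CPM). The same held for Cajal-Retzius-like and neuron-like nuclei (714 to 856 against 656 to 691 CPM). Neither measure shows how such levels vary between organoids.

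**Figure D1:**
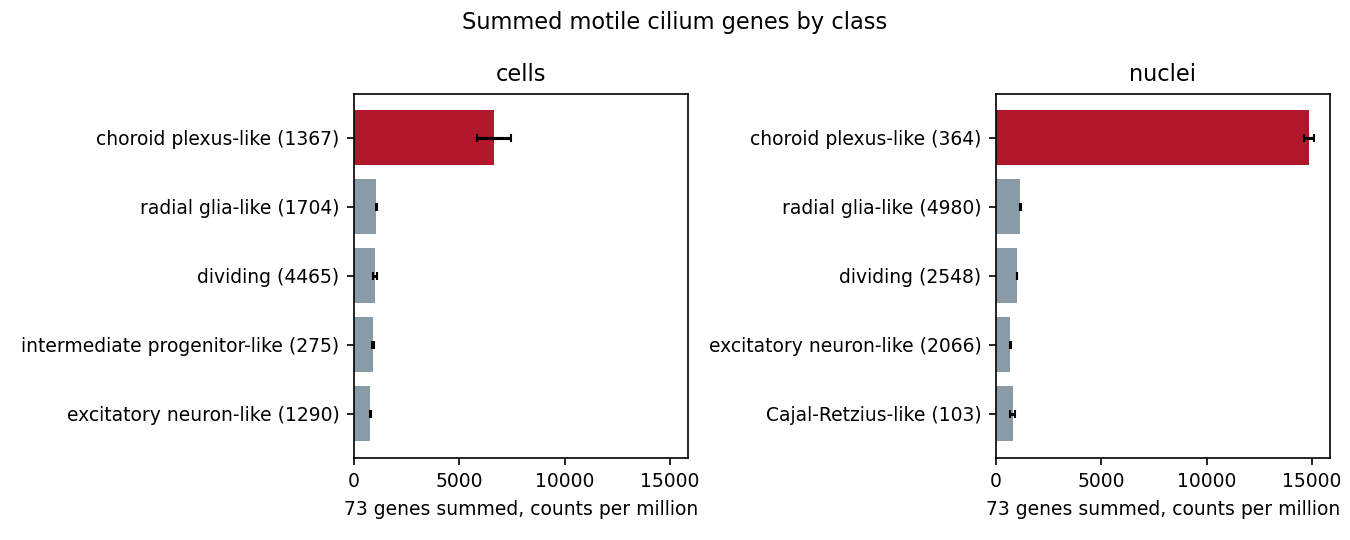
Summed level of the 73 motile cilium genes (horizontal axis, CPM) by marker-named class in cells (left) and nuclei (right), with the number of barcodes in brackets and error bars of 1 SD over sub-libraries (8 for cells, 2 for nuclei). The choroid plexus-like bars stand at 6642 and 14847, and the other bars between 673 and 1152.

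The choroid plexus markers had given the class its name, so their levels are no separate check of the label. In the nuclei none of them was among the 10 leading genes of the class, which included TEKT1, CFAP157 and CFAP52. CLIC6 and HTR2C were among the leading genes of cluster 6, the larger of its clusters in cells. All 13 choroid plexus markers were at least 2-fold higher in it (19787 against 1037 CPM summed in cells, 37414 against 1862 in nuclei), while 0 of 12 radial glia markers and 0 of 12 dividing markers were. Markers of other types also moved with it, among them 6 of 9 cortical hem markers in cells and 2 of 9 in nuclei (1106 against 143 CPM and 791 against 283). Of the inhibitory lineage 3 and 4 of 9 markers were higher (1164 against 185 and 2369 against 458), with DLX2, DLX5 and SLC32A1 at 0 in the nuclei. So were 4 and 2 of 6 mesenchymal markers (151 against 13.8 and 131 against 17.5), with COL3A1, LUM and DCN at 0 in the nuclei. Of 5 microglial markers 3 and 2 were higher (21.0 against 5.61 and 29.7 against 2.74), with AIF1, CX3CR1 and C1QB at 0 there. Of 5 endothelial markers 1 was higher in each library (49.7 against 17.1 and 5.42 against 3.56, with CDH5 at 0 in the nuclei), of 4 astrocyte markers 2 and 1 (9.22 against 7.33 and 6.71 against 6.43, with AQP4 and GFAP at 0 in the nuclei), and of 11 excitatory neuron markers 1 in cells and 0 in nuclei (611 against 2200 and 467 against 2562). Their part in the result was not tested.

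Where the border of the class was drawn changed which barcodes it held and the size of the fold. In the nuclei, cluster 7 (916 barcodes) passed for 6 of the 13 choroid plexus markers but was left unnamed, because the cortical hem markers RSPO2 and LMX1A were among its 10 leading genes. With cluster 7 in the class, which then held 1280 nuclei, the fold was 7.37 and 57 genes passed 2-fold. Leiden resolutions of 0.5 and 2 and seed 1 took 497 to 916 of these barcodes into the class, where the fold was 7.32 to 8.19, clustering with the motile cilium genes kept took in 2 of them (353 nuclei, fold 13.7), the mitochondrial limit of 10% gave 920 nuclei and a fold of 8.85, and a gate on TTR and other markers in place of clusters gave 923 nuclei, 321 of them of the class, and a fold of 5.83.

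In the cells the class of 1367 changed as well. A mitochondrial limit of 10% gave the name to other barcodes (1295, of which 120 were of the class) and lowered the fold to 1.75 and that of FOXJ1 to 0.815, and it took CFAP44 (1.20), CFAP74 (1.64) and DNAH11 (1.68) under 2-fold, whereas the same limit with the cluster names of the 20% limit gave 5.46. At Leiden resolution 2 the class held 2015 cells with 572 of the 1367 among them (fold 6.88), and the gate held 1627 with 646 (5.25). With more than 2000 transcripts per barcode it held 508 cells, 502 of them among the 1123 of the class above that depth, and the fold was 10.2. Larger classes that kept nearly all of the 1367 came from resolution 0.5 (1733 cells, fold 5.79), seed 1 (2914, 5.54), the motile cilium genes kept in the clustering (2940, 5.58) and more than 700 transcripts (4536, 5.64). Without well A8 the fold was 6.28.

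Of the 73 genes, 57 were at least 2-fold higher in choroid plexus-like cells, where 10.0% of all genes tested were, and 60 of the 72 tested in nuclei, where 13.2% were (a gene was tested with at least 20 counts). Without well A8 the count in cells was also 57, and under the mitochondrial limit of 10% it was 26, or 57 with the cluster names kept. None of the 73 was at least 2-fold lower in either library, against 15.5% and 26.9% of all genes. The median fold of the 73 genes was 7.22 in cells and 18.5 in nuclei, beside medians over all genes of 0.878 and 0.790. In both libraries together 56 genes passed 2-fold, CFAP58, CFAP53, CFAP92 and CFAP97 did so in nuclei alone, and 12 did so in neither. The share of all genes that passed in both libraries is not given, so this overlap is a count only. A fold of at least 10 was reached by 26 genes in cells and 43 in nuclei (0.856% and 2.26% of all genes).

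**Figure D2:**
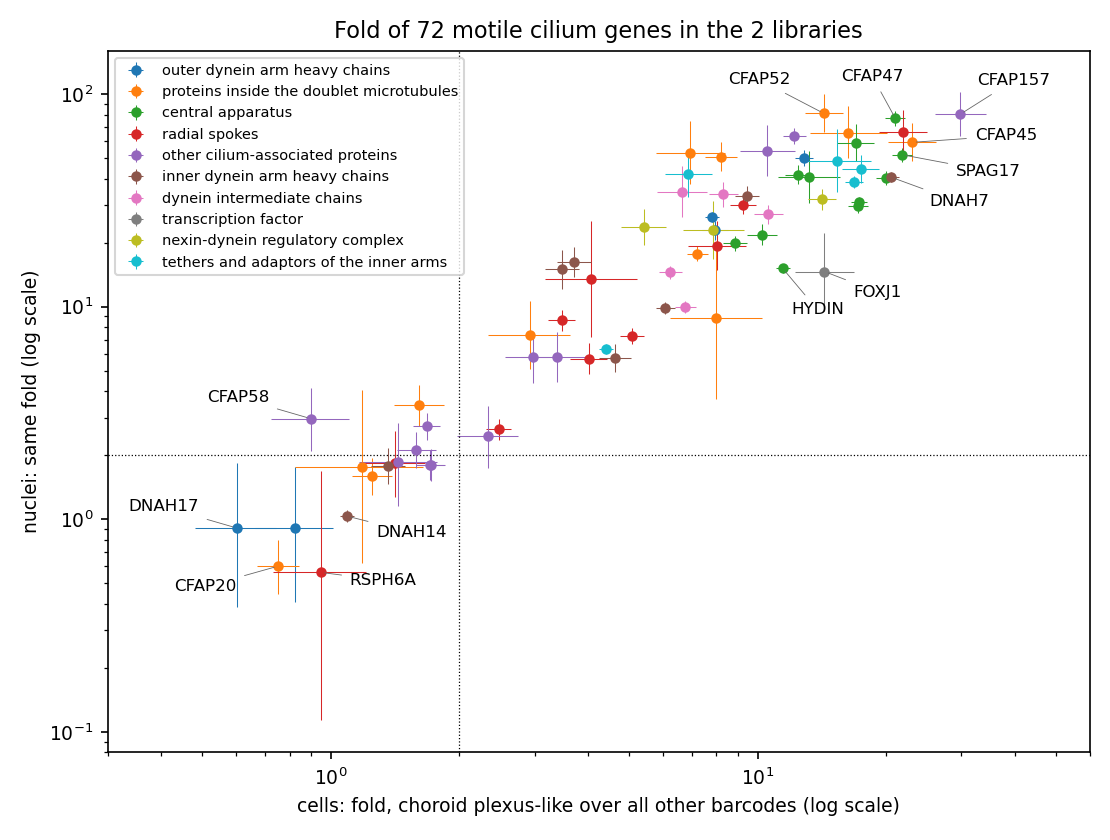
Fold of choroid plexus-like over all other barcodes for the 72 genes tested in both libraries (horizontal axis cells, vertical axis nuclei, both log scales), coloured by role, with 95% counting intervals and dotted lines at 2-fold. With the classes as named, most genes lie in the upper right, and the group at the lower left holds DNAH14, DNAH17, CFAP20 and RSPH6A.

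All 11 genes of the central apparatus, the structure around the central pair that sets the beat pattern, passed 2-fold in both libraries, with folds of 8.85 to 21.8 in cells and 15.1 to 76.8 in nuclei. SPAG17, a scaffold protein of a projection of the central pair, stood at 281 CPM in choroid plexus-like cells against 12.9 elsewhere, a fold of 21.8 (20.6 to 23.0), and at 694 against 13.4 CPM in nuclei (51.9). CFAP47 was at 282 against 13.4 CPM in cells (21.0) and 862 against 11.2 CPM in nuclei (76.8). SPAG6, another protein of the central pair projections, was at 123 against 9.91 CPM in cells (12.4, interval 11.6 to 13.3) and 308 against 7.38 CPM in nuclei (41.8).

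Other genes of the same structure behaved alike. CFAP46 was at 292 against 14.6 CPM in cells and 655 against 16.2 CPM in nuclei, a fold of 20.0 and 40.3. CFAP54 had 365 against 21.2 CPM (17.2) in cells and 879 against 28.3 CPM (31.0) in nuclei, CFAP70 had 250 against 14.5 CPM (17.2) and 465 against 15.7 CPM (29.7), and CFAP74 had 70.3 against 4.14 CPM (16.97) and 117 against 1.98 CPM (59.0). HYDIN, a very large protein of the central apparatus that is altered in a form of primary ciliary dyskinesia, was at 405 against 35.3 CPM in cells (11.4) and 893 against 59.0 CPM in nuclei (15.1). Its value is uncertain, since the near-identical copy HYDIN2 may share its reads, and the same holds for RSPH10B and its copy RSPH10B2. Without HYDIN and RSPH10B the summed fold was 6.28 in cells and 13.5 in nuclei.

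The dynein arms were split by gene. All 5 intermediate chains, which tie the motors to the doublets, passed 2-fold in both libraries (6.24 to 10.6 in cells, 9.99 to 34.8 in nuclei). Of the 5 heavy chains of the outer arms, 3 passed in both libraries, and of the 8 heavy chains grouped with the inner arms, 6 did. DNAH7, an inner arm heavy chain, was at 449 against 21.8 CPM in cells (20.6, interval 19.7 to 21.5) and 1041 against 25.6 CPM in nuclei (40.6). DNAH11, an outer arm heavy chain known from human left-right asymmetry, was at 303 against 38.8 CPM in cells (7.81) and 735 against 27.8 CPM in nuclei (26.4), and it overlaps the coding gene CDCA7L.

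The heavy chains that stayed under 2-fold were DNAH2, DNAH14, DNAH8 and DNAH17. DNAH14 was slightly higher in the choroid plexus-like class in cells, with 187 against 172 CPM (1.09, interval 1.05 to 1.13), and stood at 280 against 271 CPM in nuclei (1.03, 0.972 to 1.10), where the interval includes 1. It alone made up 16.7% of all motile cilium counts of the other barcodes in cells and 24.7% in nuclei, but 2.82% and 1.89% of those in the class. DNAH17, a heavy chain known from sperm tails, had 5.50 against 9.14 CPM in cells (0.602, 0.480 to 0.745), and 8 counts in the choroid plexus-like nuclei (0.910, 0.386 to 1.84). DNAH8, also known from sperm tails, had 6.05 against 7.35 CPM in cells (0.823, 0.662 to 1.01) and 9 counts in those nuclei.

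Radial spokes carry signals from the central pair to the dyneins. Of 11 spoke and spoke-associated genes 9 passed 2-fold in cells and 8 of the 10 tested in nuclei. RSPH1, a protein of the spoke head, stood at 50.2 against 2.29 CPM in cells (21.9, interval 19.2 to 25) and 89.0 against 1.35 CPM in nuclei (66.1). RSPH6A, a spoke head protein of the testis, had 4.34 against 4.58 CPM in cells (0.946, 0.73 to 1.21) and only 3 counts in choroid plexus-like nuclei (0.562, 0.114 to 1.70). CFAP206 had too few counts in the nuclei to be tested. All 3 genes of the nexin-dynein regulatory complex, which links neighbouring doublets, passed in both libraries (DRC1 14.1 and 32.1, DRC7 7.87 and 22.9, DRC3 5.41 and 23.7).

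The 5 genes of tethers and adaptors of the inner arms all passed in both libraries. CFAP43 and CFAP44 form a tether that holds an inner dynein to the doublet. CFAP43 was at 313 against 18.6 CPM in cells (16.8) and 764 against 19.8 CPM in nuclei (38.7), while CFAP44, which overlaps the coding gene BOC, was at 249.3 against 56.4 CPM in cells (4.42) and 479 against 75.9 CPM in nuclei (6.31). CFAP100 and CFAP73 belong to a complex next to an inner arm. CFAP100 had 74.0 against 4.25 CPM in cells (17.4) and 157 against 3.54 CPM in nuclei (44.3), and CFAP73 had 21.0 against 1.36 CPM (15.4) and 34.8 against 0.718 CPM (48.6).

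Proteins inside the doublet microtubules line their inner wall and stiffen them. Of 12 such genes 8 passed 2-fold in cells and 9 in nuclei. CFAP45 was at 53.1 against 2.31 CPM in cells (23.0, interval 20.2 to 26.2) and 107 against 1.80 CPM in nuclei (59.3), and CFAP107 at 16.6 against 1.01 CPM (16.3) and 63.5 against 0.966 CPM (65.7). CFAP20, a protein of the junction between the tubules of a doublet, was lower in the class, with 19.8 against 26.3 CPM in cells (0.752, 0.669 to 0.843) and 12.6 against 21.0 CPM in nuclei (0.602, 0.443 to 0.800). Of the 12 remaining cilium-associated genes 6 passed in cells and 9 in nuclei.

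CFAP157, a microtubule-binding protein known from sperm tails, had the largest fold of the 73 genes in cells, 29.8 (interval 25.98 to 34.4), from 55.5 against 1.86 CPM, and a fold of 80.4 in nuclei, from 102 against 1.27 CPM. CFAP58, a coiled-coil protein required in sperm tails, lay at 6.11 against 6.80 CPM in cells (0.898, 0.723 to 1.10) and 10.8 against 3.65 CPM in nuclei (2.97, 2.09 to 4.14). The interval in cells includes 1. The difference between the libraries was not tested, and in nuclei the fold was under 2 in 6 of the alternative settings, among them 1.65 with cluster 7 in the class. Reads of overlapping genes could not be separated here: 32 of the 73 genes overlap another gene on the same strand and 29 overlap a coding gene, among them SPAG17 (WDR3), RSPH1 (SLC37A1) and CFAP73 (DDX54), and whether counting used the strand is not given in the sources used here.

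**Figure D3:**
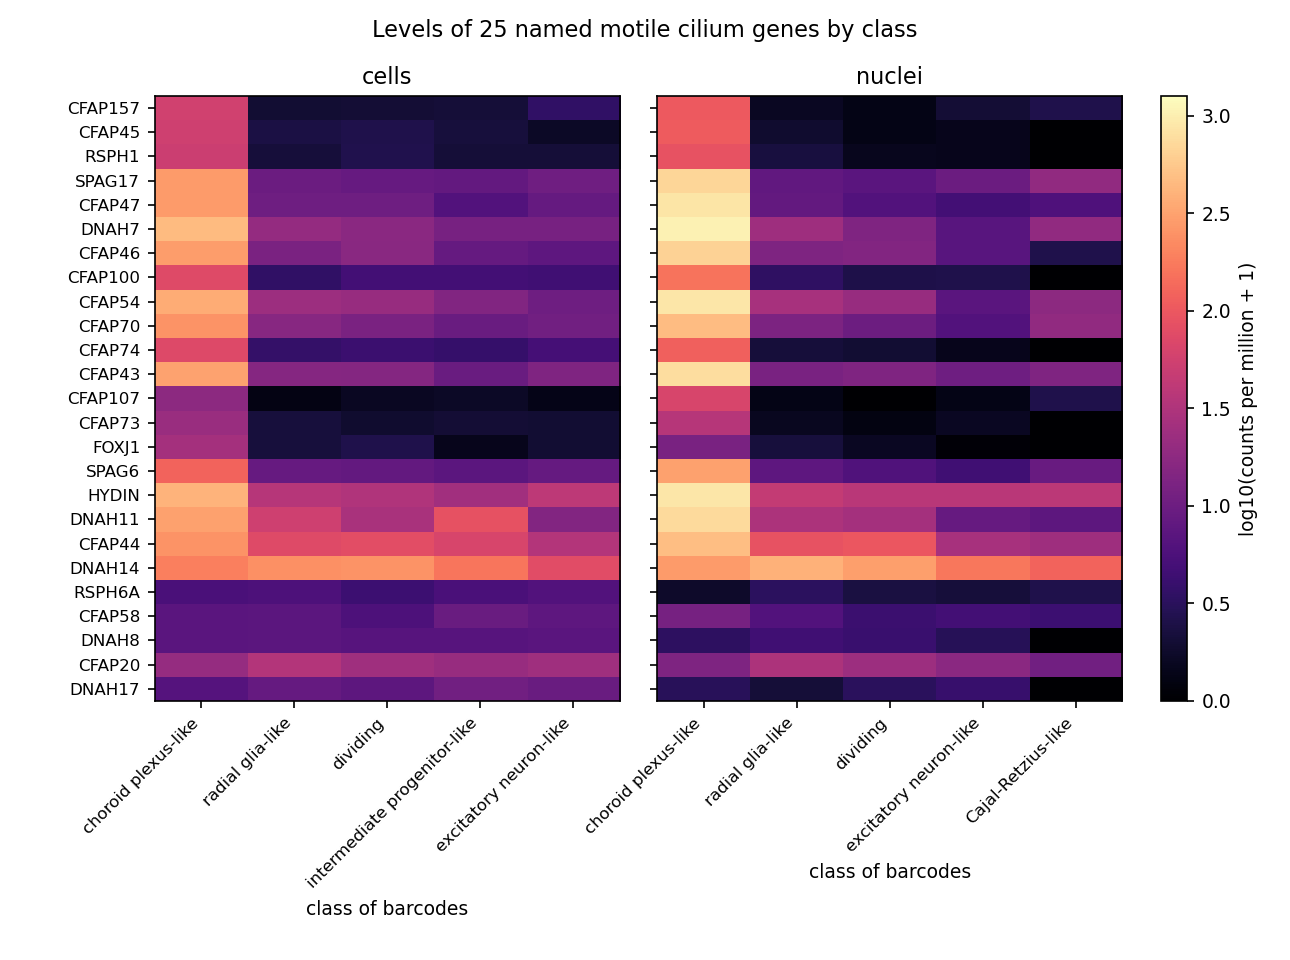
Levels of the 25 named motile cilium genes by class in cells (left) and nuclei (right), coloured by log10 of CPM plus 1. The choroid plexus-like column is the brightest for most genes, while DNAH14 is bright in every class (78.3 CPM in neuron-like cells, 187 in choroid plexus-like cells) and the last 5 genes show no such contrast in cells.

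FOXJ1 itself (chromosome 17, 76136333 to 76141245, GRCh38) was a rare transcript. It had 423 counts in choroid plexus-like cells, 25.8 CPM (interval 23.4 to 28.4) against 1.80 CPM elsewhere, a fold of 14.3 (12.2 to 16.8). In choroid plexus-like nuclei it had 44 counts, 11.4 against 0.776 CPM, a fold of 14.6 (9.58 to 22.2). By class, it stood in cells at 1.63 CPM in dividing, 1.21 in radial glia-like, 0.997 in neuron-like and 0.445 in intermediate progenitor-like barcodes, whose intervals overlap except that of the intermediate progenitor-like with that of the dividing (0.163 to 0.969 against 1.20 to 2.15).

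The pattern of FOXJ1 over the 10 class levels of both libraries was compared with that of 24457 genes by Spearman's rank correlation. The 5 closest genes were ENSG00000261659 and ENSG00000284644 (rho 0.988), followed by PDK4, a mitochondrial kinase, EVA1A and FAM189A2 (0.976, a value that further genes share). Of the 71 other motile cilium genes in the comparison 4 reached a rho of 0.9, as did 1.17% of all genes. The points share libraries and depth, and most differ by few FOXJ1 counts.

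Promoters were read from RefSeq windows of 250 bases before to 50 bases after a gene's start (GRCh38.p14), which were found for 61 of the 73 genes (75 windows). No window was matched for FOXJ1, CFAP300, DNAI4, CFAP418, HYDIN, DNAH3, DRC7, RSPH1, CFAP157, CFAP73, DNAH17 and CFAP54. The X-box core GTTGCC, searched on both strands, was present in 33 of the 75 windows (44%) and in 12.2% of all 35116 windows. Counted by gene, 31 of 61 genes (50.8%) held it, against 14.6% of 27305. The paired X-box, a core followed by its inverted copy with some positions left free, whose matches can contain the core, was present in 2 windows (2.67%, against 0.490%), and the forkhead motif GTAAACA, also searched on both strands, in 3 (4.0%, against 3.42%). The windows of these genes were slightly richer in G and C (median 61.0% against 58.7%).

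The following sequences show where the core lies in genes with a large fold, CFAP45, CFAP47 and CFAP100, and in CFAP58, whose fold in cells was 0.898. Each is the 120 bases before the RefSeq start, on the strand of the gene, 5′ to 3′, and capitals mark the core (GGCAAC where it reads on the opposite strand). They cover chr1:159900166-159900285 (minus strand) for CFAP45, chrX:35919614-35919733 (plus) for CFAP47, chr3:126394789-126394908 (plus) for CFAP100 and chr10:104353713-104353832 (plus) for CFAP58.
CFAP45: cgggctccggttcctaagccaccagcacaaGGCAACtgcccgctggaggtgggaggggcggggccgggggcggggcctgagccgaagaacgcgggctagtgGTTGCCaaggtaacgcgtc
CFAP47: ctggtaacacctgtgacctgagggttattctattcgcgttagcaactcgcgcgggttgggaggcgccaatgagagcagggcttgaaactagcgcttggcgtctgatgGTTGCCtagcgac
CFAP100: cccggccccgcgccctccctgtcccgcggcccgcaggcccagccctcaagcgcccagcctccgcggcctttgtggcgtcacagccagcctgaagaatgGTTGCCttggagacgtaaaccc
CFAP58: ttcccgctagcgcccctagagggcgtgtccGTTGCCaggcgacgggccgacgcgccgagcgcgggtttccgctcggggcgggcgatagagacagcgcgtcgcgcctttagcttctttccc
In CFAP47, CFAP45 and CFAP100 the nearest core begins 13, 19 and 22 bases before the start, and in CFAP58 it begins 90 bases before it, as does the other core of CFAP45. The distance did not go with the fold throughout: DNAH2 and RSPH14, which passed 2-fold in neither library, have it 18 and 20 bases before the start. The 2 paired X-boxes are shown in capitals with 8 bases on either side, for CFAP45 (chr1:159900163-159900192, minus) and DNAH1 (chr3:52316206-52316235, plus), followed by the core of SPAG6 (chr10:22345464-22345485, plus).
CFAP45 paired: ggctagtgGTTGCCAAGGTAACgcgtcaac
DNAH1 paired: aggctgatGTTGCCATGGCAACccggatag
SPAG6: tccggtagGTTGCCcgggagac
The share of windows with the core was 47.2% (25 of 53) for genes that passed 2-fold in both libraries and 38.5% (5 of 13) for genes that passed in neither.

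Whether these genes had a higher level in nuclei than in cells depended on the border of the class. Within the choroid plexus-like class as named 58 of 72 genes (80.6%) were higher in nuclei, with a median ratio of nuclei to cells of 1.94, beside 25.4% and a median of 0.667 over the 24423 genes tested in both libraries, and FOXJ1 was among the 14 that were lower (11.4 against 25.8 CPM). With clusters named by marker number alone, which takes cluster 7 into the nuclei class, 26 of 72 were higher in nuclei (36.1%, beside 31.6% of all genes), the median ratio was 0.914, and the summed level was 7055 CPM in nuclei and 6632 CPM in cells. At Leiden resolution 2 the count was 29, at 0.5 it was 37, with the gate it was 22 and with seed 1 it was 47, so no order of the libraries is read here. In the class as named the ratio was larger for genes that are longer on the genome (Spearman's rho 0.443 over 72 genes): the 36 longer genes had a median ratio of 2.25 and the 36 shorter ones of 1.68. The same relation held over all genes (rho 0.286 over 24408), whose medians were 0.878 and 0.604 above and below the median span of the motile cilium genes. The folds of the 2 libraries followed the same order (rho 0.90 over 72 genes). Genes are not independent replicates and share the libraries, so these values are a description. Per kilobase of exon, the highest levels in choroid plexus-like cells were CFAP210 (58.5 CPM per kb), CFAP43 (43.6), DNAI1 (38.3), CFAP299 (35.9) and DRC1 (35.7). The order was another one per kilobase of genomic span in the nuclei, where both the length and the library differ: CFAP299 ranked 4 in the first list and 46 there.

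Other genes of the program were described from 3 lists. Unlike the 73 genes, those of the lists were kept in the clustering and could shape the classes. Their folds are therefore not independent of how the class was drawn. Of 13 regulators of multiciliated cells, 8 passed 2-fold in choroid plexus-like cells and 9 in nuclei, beside 10.0% and 13.2% of all genes, and none was 2-fold lower, beside 15.5% and 26.9%. MCIDAS and GMNC, coiled-coil regulators that start the program, stood at 6.11 against 0.263 CPM (23.3) and 42.4 against 3.05 CPM (13.9) in cells, with folds of 44.1 and 27.3 in nuclei. CCNO, needed for the mass production of centrioles, was at 17.3 against 0.844 CPM (20.5) in cells and had a fold of 70.5 in nuclei. The factor RFX2 had folds of 2.83 and 4.00 and RFX3 of 1.30 and 2.22, whereas FOXN4 was at 1.11 and 1.55 and E2F5 at 0.625 and 0.514.

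Of 53 assembly factors, docking proteins and other axonemal genes, 43 passed in cells and 46 of 52 in nuclei, beside the same 10.0% and 13.2%, led in cells by TEKT4, a tektin filament protein (57.9, interval 30.6 to 121), ARMC3 (28.5) and DNAAF1, an assembly factor of dynein arms (22.9). Of the genes of intraflagellar transport and the BBSome, which serve all cilia, 5 of 34 passed 2-fold in cells and 14 of 34 in nuclei, beside the 10.0% and 13.2% of all genes. The largest in cells were BBS5 (2.62), DYNC2H1, the motor of retrograde transport (2.38), and IFT22 (2.30).

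Single barcodes were compared at equal depth, after each had been thinned to 1000 transcripts. At least 1 motile cilium transcript was then found in 89.2% (87.4 to 90.8) of choroid plexus-like cells and 99.5% (98.0 to 99.9) of nuclei. The share was 65.2% and 64.6% in radial glia-like and 53.1% and 47.8% in neuron-like barcodes, so a single transcript did not separate the classes. At least 5 different genes were found in 42.3% of choroid plexus-like cells and 92.9% of nuclei, against 0.155% of neuron-like cells and 0 of 2066 neuron-like nuclei (upper bound 0.178%). With cluster 7 in the class the share of nuclei was 34.6%, and at Leiden resolutions of 0.5 and 2 and with seed 1 it was 35.4% to 47.5%, while in cells it was 25.1% to 35.0% at those settings and 11.5% at the mitochondrial limit of 10%. Unthinned, the share with a motile cilium transcript was 97.7% in choroid plexus-like and 91.6% in neuron-like cells, at median depths of 5853 and 6685.5.

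The number of different genes per thinned barcode had a median of 3 (quartiles 1 and 8) in choroid plexus-like cells and 11 (8 and 15) in nuclei. Choroid plexus-like cells therefore ranged from none of the 73 genes to 24 of them. The variance of the summed count was 6.92 times its mean in these cells and 5.11 times in the nuclei, beside 1.13 and 1.10 in neuron-like barcodes. FOXJ1 was detected, unthinned, in 14.05% (12.2 to 16.0) of choroid plexus-like cells and 10.7% (7.73 to 14.4) of nuclei, and in 0.930% and 0.0484% of neuron-like ones, whose median depth was 6685.5 in cells and 3495.5 in nuclei against 5853 and 9657 in the class. Thinned to 1000 transcripts, the share was 1.98% (1.31 to 2.86) of choroid plexus-like cells and 2.47% (1.14 to 4.64) of nuclei, against 0.155% of neuron-like cells and 0 of 2066 neuron-like nuclei.

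**Figure D4:**
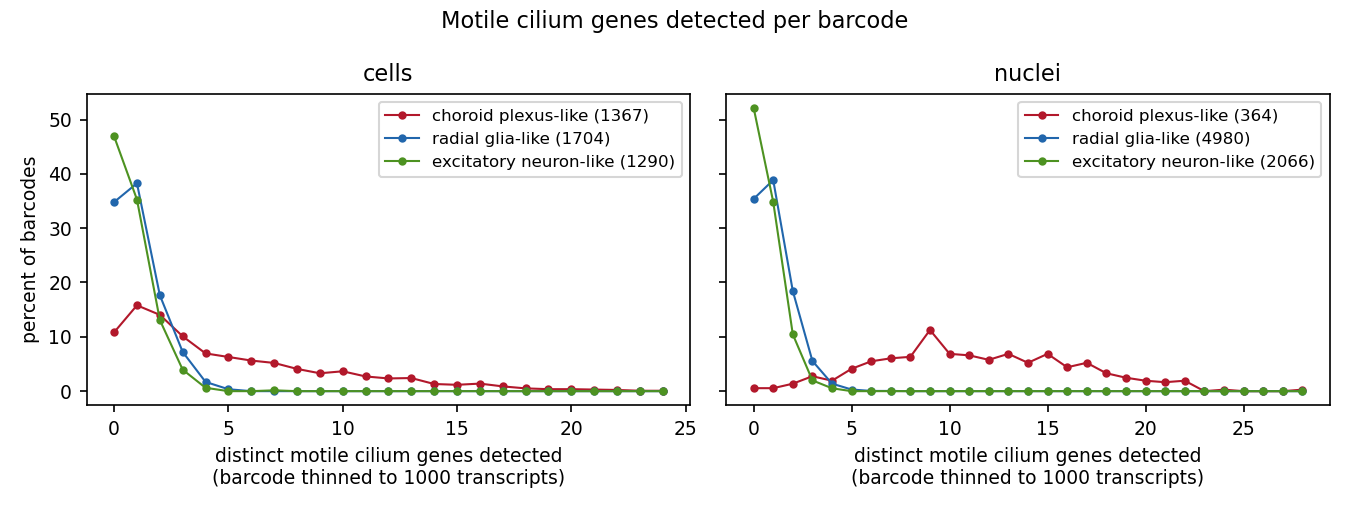
Number of different motile cilium genes detected per barcode thinned to 1000 transcripts (horizontal axis) against the percent of barcodes (vertical axis) in cells (left) and nuclei (right), for 3 classes with their barcode numbers in brackets. Radial glia-like and neuron-like barcodes end by 7 genes in the cells, while choroid plexus-like ones reach 24 in cells and centre on 11 in nuclei.

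Within the class, barcodes with a FOXJ1 count also carried more of the other 72 genes. The mean was 10.3 transcripts per 1000 in the 192 cells with FOXJ1 and 5.49 in the 1175 without, but the former were deeper (medians 20524 and 5002 transcripts). In nuclei, where depths were alike (9653 and 9661), the means were 21.1 in 39 nuclei and 15.6 in 325. The count of TTR, the transthyretin that choroid plexus secretes, rose with that of the motile cilium genes over thinned cells (rho 0.403 over 1367) and not over nuclei (rho -0.0116 over 364). Both come from the same barcodes and are sparse.

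The level outside the class was set beside that of TTR, which neurons should lack. TTR stood in neuron-like barcodes at 5.30% of its choroid plexus-like level in cells and 1.06% in nuclei. For the motile cilium genes past 2-fold the median of the same share was 8.44% and 2.27%, and 17 of 57 and 15 of 60 lay at or under the share of TTR, while 32 of 57 and 32 of 60 had an interval wholly above it. In barcodes of 10 to 100 transcripts, the summed motile cilium genes stood at 25.4% of the class level in cells and 12.9% in nuclei, and TTR at 18.3% and 9.93%. In neuron-like barcodes the sum stood at 11.8% and 4.53%. The part of free RNA in these levels was not tested.

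Radial glia-like and neuron-like barcodes were also compared with each other. At least 2-fold higher in radial glia-like barcodes were 8 of 71 genes in cells (11.3% of all genes tested) and 21 of 67 in nuclei (19.5%), and 5 of 71 (8.85%) and 6 of 67 (8.69%) were at least 2-fold lower. DNAI1, an intermediate chain of the outer arms, was at 38.5 against 7.52 CPM in cells (5.12) and 59.7 against 6.35 CPM in nuclei (9.41), and DNAH11 at 53.8 against 13.7 CPM (3.94) and 29.2 against 7.88 CPM (3.70). Higher in neuron-like barcodes in both libraries were CFAP161, found inside doublets (28.2 against 7.42 CPM in cells, 34.3 against 9.69 in nuclei), and DNAH2, an inner arm heavy chain (36.3 against 12.5 and 23.6 against 7.90). These 4 genes were chosen after their values were seen, except DNAH11.

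Among the nuclei outside the class, the unnamed cluster 7 had the highest level. It expressed the choroid plexus marker HTR2C (10410 CPM) together with the cortical hem markers RSPO2 (1360 CPM) and LMX1A (545 CPM), and its motile cilium genes summed to 2393 CPM. Of 72 genes 43 were at least 2-fold higher in it than in other nuclei outside the class (10.7% of all genes), with a summed fold of 2.50 (2.45 to 2.54), and 12.2% of its thinned barcodes held at least 5 of them. Cluster 16 of the nuclei, led by PAX3 (171 barcodes), was at 1545 CPM. It was part of the radial glia-like class, having passed for 3 of 12 markers, whereas the cell cluster led by PAX3 was left unnamed. In cells the highest clusters outside the class were cluster 21 (2870 CPM, but only 33 barcodes of median depth 1165, 100% of them from well C6), cluster 9 (1924 CPM, 1008 barcodes), cluster 14, led by PAX3 (1762 CPM, 520 barcodes) and cluster 0, led by TTR (1539 CPM, 2277 barcodes of median depth 1649).

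The 3 larger cell clusters differed in how far all genes moved with them. In cluster 9, 44 of 73 genes were at least 2-fold higher than in the other cells outside the class, but so were 39.4% of all genes, and none was at least 2-fold lower (2.86%). In cluster 14 the count was 33 of 73 (13.6%), with SPAG17 at 48.8 against 11.6 CPM, and in cluster 0 it was 23 of 73 (4.75%), with CFAP45 at 10.2 against 1.99 CPM. Cluster 0 also held TTR at 1345 CPM, 46.0% of the choroid plexus-like level, while its motile cilium genes stood at 23.2% of that level. Whether free RNA entered these values was not tested.

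The class itself was made of 2 clusters in cells. Cluster 6 (1233 barcodes) was at 6868 CPM and cluster 17 (134 barcodes, 94.0% of them from well A8) at 3830 CPM, a fold of 0.558 (0.541 to 0.574). In cluster 17, 31 of 73 genes were at least 2-fold lower than in cluster 6 (28.5% of all genes were) and none was higher (8.23%). FOXJ1 had 3 counts in it, 2.46 against 27.7 CPM. RSPH1 (57.3 against 49.6 CPM), DNAH3 (43.4 against 39.7) and CFAP100 (74.5 against 74.0) were level between the clusters. In 131 of its 134 barcodes, which made up sub-cluster 4 of the class, the leading genes included LMO3, ARPP21, GRIK3, NEGR1, GRIA2 and OPCML, which are known from neurons, and the part of such transcripts in these values was not tested. Well A8 gave barcodes to both clusters, and the 18 of them in cluster 6 stood at 12558 CPM (12246 to 12875, 21 FOXJ1 counts, median depth 27560.5), while the 126 in cluster 17 stood at 3801 CPM (3690 to 3915, 3 FOXJ1 counts, median depth 3269.5). From the other wells, the 1215 barcodes of cluster 6 stood at 6678 CPM and the 8 of cluster 17 at 4504 CPM. The part of well and depth in the level of cluster 17 was not tested.

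Choroid plexus-like barcodes were clustered again without the 73 genes and the 3 lists, and the sub-clusters differed widely in motile cilium genes. Genes of the same program outside these lists were kept. CDC20B and PLK4 were among the leading genes of sub-cluster 7 of the cells and sub-cluster 2 of the nuclei, so the split is not independent of the program. In cells their summed level ran from 1655 CPM in sub-cluster 2 (167 barcodes) to 22844 CPM in sub-cluster 7 (42 barcodes), and in nuclei from 11462 CPM (sub-cluster 3, 40 barcodes) to 20424 CPM (sub-cluster 2, 88 barcodes). The highest sub-cluster of both libraries was the one with most CDC20B, whose locus is known for its part in centriole multiplication (1739 CPM in cells, 889 in nuclei). It held PLK4 and STIL, which start new centrioles, at 234 and 368 CPM in cells and 66.5 and 107 CPM in nuclei. CDC20B, PLK4 and STIL were named after their values were seen.

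FOXJ1 was also highest there, with 166 CPM in sub-cluster 7 of the cells (110 of its 423 counts in the class) and 32.6 CPM in sub-cluster 2 of the nuclei (26 of 44). FOXN4, a forkhead factor of early multiciliated cells, reached 323 and 224 CPM, CCNO 178 CPM and MCIDAS 55.9 CPM in the cells. GMNC lay elsewhere, at 102 and 92.2 CPM in sub-clusters 5 and 0 of the cells and 330 CPM in sub-cluster 0 of the nuclei, against 25.7 and 82.8 CPM in the sub-cluster with most CDC20B. In sub-cluster 0 of the nuclei, also a reference below, 83 of 133 barcodes (62.4%) came from well A10. In sub-cluster 5 of the cells, 51 of 108 came from well D6. Every barcode of sub-cluster 7 of the cells held at least 5 of the 73 genes after thinning, with a median of 15.

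**Figure D5:**
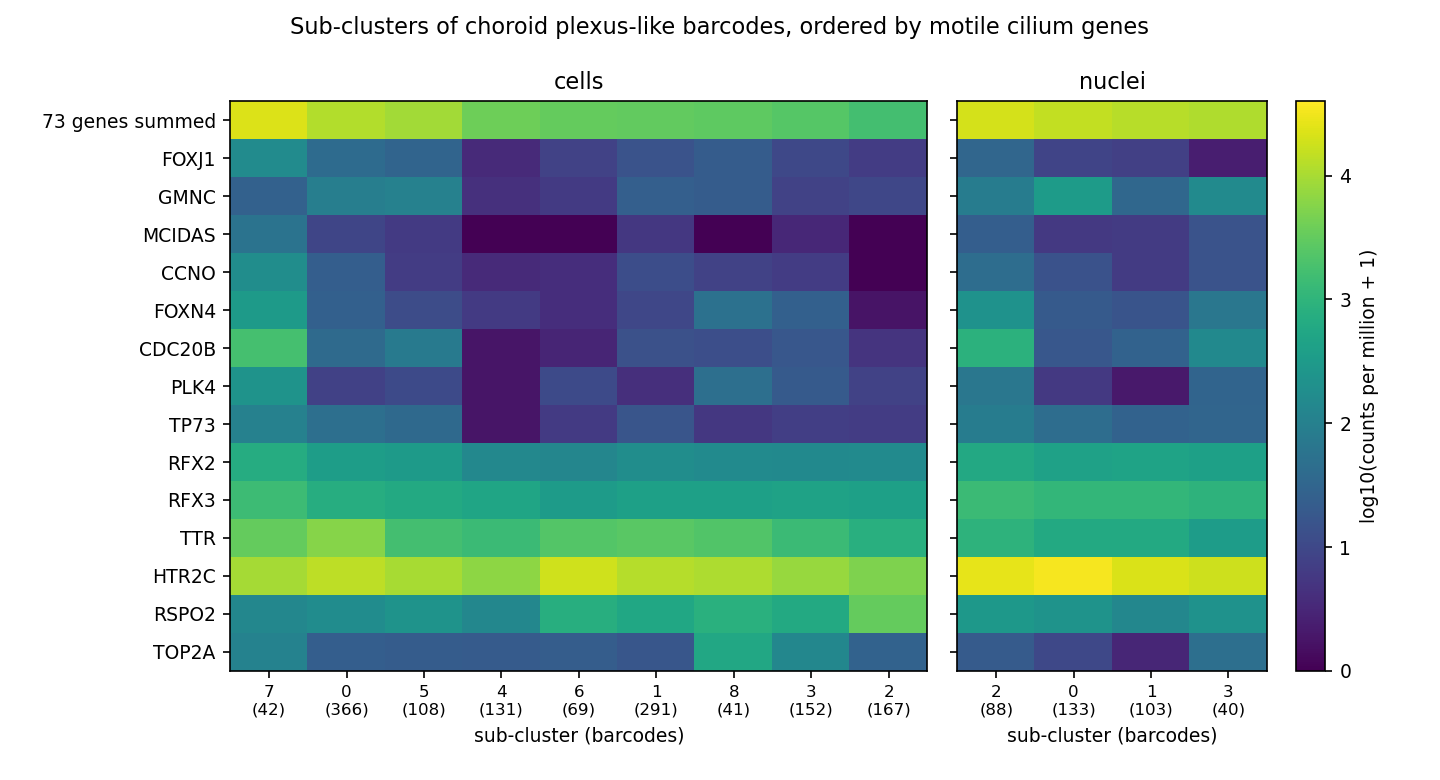
Levels of the summed motile cilium genes and of 14 other genes (rows, colour as log10 of CPM plus 1) in the sub-clusters of choroid plexus-like cells (left) and nuclei (right), ordered by the summed level and with barcode numbers in brackets. The leftmost sub-cluster of each panel (22844 and 20424 CPM) also has the brightest FOXJ1, CDC20B and PLK4, and the rightmost one of the cells (1655 CPM) the brightest RSPO2 (3260 CPM).

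The largest sub-cluster of the cells, sub-cluster 0 (366 barcodes, TTR at 5736 CPM), served as a reference. Against it, sub-cluster 7 had a summed fold of 1.96 (1.93 to 2.00), with 32 of 71 genes at least 2-fold higher (9.07% of all genes) and 1, CFAP58, lower (15.4%) on 3 counts. FOXJ1 (166 against 39.5 CPM, 4.20), CFAP47 (2041 against 477 CPM, 4.28), CFAP299 (1250 against 274 CPM, 4.56) and DNAH12 (843 against 201 CPM, 4.20) differed most, and DNAH11 was at 412 against 560 CPM (0.737).

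Sub-cluster 2 of the cells, in which the hem markers RSPO2 and RSPO3 stood at 3260 and 304 CPM, was the opposite case, with 59 of 71 genes at least 2-fold lower than in sub-cluster 0 (12.1%) and a summed fold of 0.142. DNAH14 was higher there, 231 against 167 CPM, and DNAH17 and RSPH6A, on 12 and 9 counts, were the 2 genes at least 2-fold higher (11.9%). In the nuclei, sub-cluster 2 over sub-cluster 0 had a summed fold of 1.38 with 9 of 65 genes at least 2-fold higher (6.14%) and none lower (6.27%), led by DNAH3 (119 against 17.6 CPM, 6.78), DNAH10 (168 against 36.6 CPM, 4.6) and FOXJ1 (32.6 against 7.74 CPM, 4.22). Over sub-cluster 3 it was 1.78, with 19 of 62 genes higher (5.66%).

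The sub-cluster with most CDC20B kept the highest summed level under another seed and at resolutions of 1 and 0.3 (13316 to 22273 CPM in cells, 20649 to 27089 CPM in nuclei). In the cells at the lower resolution it took in 391 barcodes. Median depth in the cells was 10824.5 transcripts in sub-cluster 7, 13946.5 in sub-cluster 3 (2472 CPM) and 6029.5 in sub-cluster 0 (11632 CPM). In the nuclei it was 8360 in sub-cluster 2 (20424 CPM), 10154 in 0 (14825), 8291 in 1 (12727) and 14804.5 in 3 (11462). Over the whole class, the level in nuclei fell from 19771 CPM at 2000 to 5000 transcripts to 12912 CPM above 20000. In cells it was 5135 and 7032 CPM at the same depths. Mitochondrial shares differed too, at 9.84% and 10.3% in sub-clusters 7 and 0 of the cells against 2.96% to 7.79% in the others (4.35% in sub-cluster 2), and at 2.26% in sub-cluster 2 of the nuclei, whose leading genes included mitochondrial ones, against 0.179% to 0.445% in the others. The part of depth and of mitochondrial share in these differences was not tested. The sub-cluster with the highest level came from 10 wells in cells and 12 in nuclei.

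No label used here ties the wells of the first barcoding round to a condition or day. In the 14 wells of the cells with at least 20 choroid plexus-like barcodes, the level in that class ran from 1896 CPM in well A5 to 12567 CPM in well A1, with a median of 7088, and lay 1.89 to 9.97 times above the other barcodes of the same well. Well A8 was at 6389 CPM. In the 6 such wells of the nuclei it ran from 12986 to 16338 CPM, 11.9 to 16.4 times above. FOXJ1 in the class ran from 6.13 CPM (A5, 2 counts in 20 barcodes) to 68.9 CPM (B7, 20 counts in 27 barcodes) in those wells of the cells. The class was thus above the rest in each of these wells.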

How the data were processed

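RNA of brain organoid cells and nuclei was sequenced with split-pool combinatorial barcoding. The deposited values were counts of transcripts per gene and barcode, made by the authors against GRCh38 and not normalised. A barcode entered if its gene number exceeded 500, its transcript number 1000 and its mitochondrial share did not pass 20%. Kept barcodes were clustered in scanpy 1.11.5 (2000 variable genes, 30 components, 15 neighbours, Leiden resolution 1 with igraph 0.11.9, seed 0, Python 3.11.15). The motile cilium genes taken by name were left out of this step, and other cilium genes were kept. A cluster was named when at least 3 markers of a type were at least 1.5-fold higher in it than in the other barcodes and found in at least 25% of its barcodes. It stayed unnamed where markers of another type were as many or more among its 10 leading genes, or where the library's median depth was over 3 times its own and no marker of its type was among them.

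Counts were summed over the barcodes of a class and divided by their total. Folds with at least 20 counts in a library were described against a limit of 2-fold, with exact intervals (scipy 1.17.1) and no test, since each library was 1 sample. For shares, barcodes were thinned to 1000 transcripts. Scrublet called no doublets and none were removed, but the study's methods expected some in both libraries, so doublets may remain. Free RNA was not removed. Gene positions came from GENCODE on GRCh38 and promoters from RefSeq (GRCh38.p14). The scripts were tested on simulated data.

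The motile cilium genes and all lists were chosen with earlier results of these data known. Named were FOXJ1, SPAG6, SPAG17 and HYDIN, the 15 genes with the largest and the 5 with the smallest fold in cells, the 5 with the most counts, those at least 2-fold higher in 1 library and under 1 in the other, the 3 with the largest fold in cells of each other list, and the 5 most like FOXJ1. Other genes named were chosen after their values were seen.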

Additional observations from a re-analysis of the deposited data

Results flagged for a closer look

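CFAP58 lay under 1 in cells and above 2-fold in nuclei, with a fold of choroid plexus-like over all other barcodes of 0.898 (interval 0.723 to 1.10, which includes 1) and 2.97 (2.09 to 4.14). The difference was not tested, and the fold in nuclei was under 2 in 6 alternative settings. Barcodes of 10 to 100 transcripts, which enter no comparison, also held motile cilium transcripts, at 1685 CPM in the cells (1022725 barcodes) and 1923 CPM in the nuclei (167580 barcodes). TTR stood at 536 and 62.5 CPM in the same barcodes.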

How the results depend on the processing

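No paired analysis was possible because each library was 1 sample and no result came from a test. The summed fold stayed above 1 under each alternative run. In cells (6.46) it was 5.79 and 6.88 at Leiden resolutions of 0.5 and 2, 5.54 with seed 1, 5.25 with a gate on TTR and markers, 6.69 without the highest Scrublet scores, 5.6 as a mean over barcodes, 1.75 at a mitochondrial limit of 10%, 10.2 and 5.64 above 2000 and 700 transcripts, 5.58 with the motile cilium genes kept in the clustering, 6.24 against radial glia-like barcodes, 6.28 without HYDIN and RSPH10B and 6.54 without well D12. In nuclei (13.6) it was 7.32 and 8.19 at resolutions of 0.5 and 2, 8.15 with seed 1, 5.83 with the gate, 14.1 without the highest Scrublet scores, 15.3 as a mean over barcodes, 8.85 at the mitochondrial limit of 10%, 13.8 above 2000 transcripts and without well A10, and 12.9 against radial glia-like barcodes.

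The count of genes at least 2-fold higher in cells moved to 26 at the mitochondrial limit of 10%, where the fold of FOXJ1 turned to 0.815, and ran from 49 to 62 elsewhere. In nuclei it ran from 54 to 67. These ranges take in settings with a limit of 1.5-fold or 4-fold in place of 2-fold. They also take in settings with a minimum of 1 or 50 counts. The share of choroid plexus-like cells with a motile cilium transcript (89.2%) was 85.5% at resolution 2, 84.5% with the gate, 79.8% at the mitochondrial limit of 10%, 99.0% and 83.8% above 2000 and 700 transcripts, 84.7% with the genes kept, 83.9% with seed 1, and 76.0%, 96.3% and 97.7% when thinned to 500, to 2000 or not at all. In nuclei (99.5%) it was 83.8% and 89.1% at resolutions of 0.5 and 2, 82.0% with the gate, 89.5% at the mitochondrial limit of 10%, 89.7% with seed 1, and 100% without the highest Scrublet scores, above 2000 transcripts, with the genes kept, thinned to 2000 and not thinned.

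Alternatives chosen after seeing the data were the omission of well A8 (6.28 in cells, share 88.1%), the mitochondrial limit of 10% with cluster names kept (5.46 and 86.3% in cells, 13.6 and 100% in nuclei), names by marker number alone, which put cluster 21 of the cells (6.45 and 88.8%) and cluster 7 of the nuclei (7.37 and 84.1%) into the class, and the sub-cluster settings. Of 350 values of 25 named genes in cells 346 stayed on their side of 2-fold, the 4 others being CFAP44, CFAP74, DNAH11 and FOXJ1 at the mitochondrial limit of 10%, and of 300 in nuclei 294, where the 6 others were CFAP58. The share with at least 5 of the genes ran from 11.5% to 84.2% in cells (42.3%) and from 34.6% to 100% in nuclei (92.9%), and the genes higher in choroid plexus-like nuclei than cells (58) from 22 to 61. Above 700 transcripts was not run for nuclei. Apart from the names at the mitochondrial limit, the cause of these moves was not tested. Counts in choroid plexus-like nuclei were low for FOXJ1 (44), DNAH8 (9), DNAH17 (8) and RSPH6A (3).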

Other observations

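Among the named classes of the cells other than choroid plexus-like, DNAH11 stood highest in intermediate progenitor-like barcodes, at 86.3 CPM, against 53.8 CPM in radial glia-like, 27.6 CPM in dividing and 13.7 CPM in excitatory neuron-like cells. The intermediate progenitor-like class was cluster 15 alone, 275 barcodes of median depth 25919, against 2615 over all kept cells. It passed for 4 of 7 markers, none of them among its 10 leading genes. DNAH11 overlaps the coding gene CDCA7L, and the part of that gene and of depth in these values was not tested. DNAH11 was looked at here after its values were seen.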
